A study of Arabidopsis thaliana with 6 samples.

Results

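Callus is a mass of dividing, unspecialised plant cells, and the comparison described here set Arabidopsis thaliana callus beside cells grown from it for 9 days in a liquid medium that the labels call high differentiating. It was made up of 2 of the 6 arrays in the series, chosen by their labels: the callus array of day 0 and the day 9 array of the high medium. All cultures came from the ecotype Ler. Leaves of seedlings 14 to 17 days old were kept in darkness at 22 °C for 2 weeks on a callus induction medium with 2.0% glucose, 0.5 mg/l of the synthetic auxin 2,4-D and 0.05 mg/l of the cytokinin kinetin, and that callus was the day 0 sample. The high medium held 0.2% sucrose, 4% mannitol, 0.2 mg/l auxins (2,4-D, NAA and IAA are listed, and whether the amount is for each or for all is not stated) with the cytokinin benzyladenine (BA) at 1 mg/l. It was shaken at 105 rpm. Medium, liquid culture and time all differ between the 2 arrays and cannot be told apart, and the lighting of the liquid cultures is not given in the labels. The other 4 arrays were the high medium at days 2 and 5 and a low differentiating medium at days 5 and 9. They are set beside the 2 arrays only to show how the same genes read elsewhere.

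The labels name no cell type for day 9, although the title of the series speaks of trans-differentiation. In cultures of this kind, auxin and cytokinin together can lead cells into division or into a new fate such as a xylem cell. A plant cell that takes up a new fate changes its wall, which is built from cellulose, xyloglucan and pectin and is loosened by expansins, cut and joined by xyloglucan endotransglucosylase/hydrolases and cross-linked by peroxidases and extensins. Cells in culture also make chaperones, which keep other proteins folded, and enzymes that attach glutathione or sugar to reactive or foreign compounds.

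Each array gave 1 intensity on a linear scale for each of 22746 probe sets that are not controls. The mean intensity after trimming 2% at each end was 99.4 for callus and 99.3 for day 9, so the deposited arrays had been brought to 1 level. Values below 24.7 were raised to that floor, which left 60.05% of probe sets above it in callus and 59.88% at day 9. Floored log2 intensities of the 2 arrays had a Pearson correlation of 0.963 over these probe sets, which do not stand for replicates. The platform annotation gives 1 gene for 13513 probe sets, and 13356 genes remained with 1 probe set each. With 1 array a side there is no replicate check of any difference below and no p-value, and "at least 2-fold", a log2 ratio of 1 or more in size, is a rule of size only. Where 1 of the 2 arrays lay at or below the floor, the ratio is a lower bound on the difference and is written as at least. Where both did, as for 5517 genes, no ratio is given. The array holds RNA of a whole culture, so fewer cells of a type and less RNA per cell cannot be told apart.

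By this rule 318 probe sets (1.4%) were higher at day 9 and 389 (1.71%) were lower. Over genes, 165 of 13356 (1.24%) passed 2-fold on the higher side and 173 (1.3%) on the lower, and the median log2 ratio of the 7839 genes with a ratio was -0.02, with quartiles of -0.29 and 0.26. At these shares a short list of genes would mostly hold 0 calls, so 0 calls in a list below is no result about its members. No count of calls in a list was tested against these shares. The 2 tails differed in reach. At least 4-fold differences were seen for 29 genes higher and 23 lower, at least 8-fold differences for 10 higher and 2 lower, and at least 16-fold differences for 5 higher and 0 lower. The genes that were higher had a median intensity of 49.2 in callus and 183.7 at day 9. Those that were lower had a median of 144.3 in callus and 52.5 at day 9. Over all probe sets the median was 42.4 in callus and 40.8 at day 9. A call needs the brighter array to lie at least 2-fold above the floor, so part of this pattern follows from the rule. The genes nearest the limit were AT5G14390, with a log2 ratio of 1.003, and AT5G18750, with 0.999, on the higher side, and AT1G25530, with -1.005, and AT3G26470, with -0.998, on the lower.

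**Figure D1:**
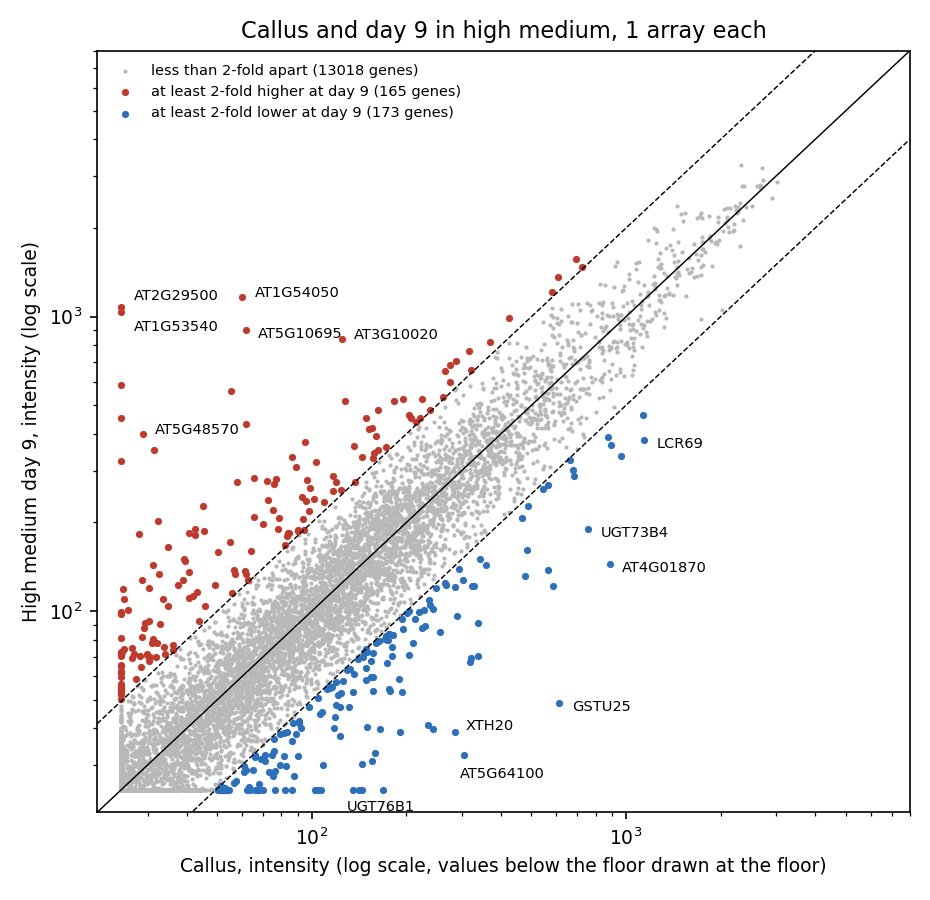
Intensity of 13356 genes on the callus array (horizontal, log scale) and on the day 9 array of the high medium (vertical, log scale), with values below 24.7 drawn at the floor, the solid line marking equal intensities and the dashed lines 2-fold differences. The 165 red genes are at least 2-fold higher at day 9 and reach further from the line than the 173 blue genes, which are at least 2-fold lower.

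Genes of small heat-shock proteins, chaperones that hold unfolding proteins in solution, read the furthest above callus. Of the 10 measured genes of this family, 9 had a ratio, 8 were at least 2-fold higher and 0 were lower. The median log2 ratio was 4.19, the ratio of a member at the floor in callus, so it depends on the floor. It was 3.54 with the floor at 7.7 and 2.98 with the floor at 65.1. AT2G29500, a cytosolic class I member, read 22.5 in callus, which lies below the floor, and 1082 at day 9, so it was at least 43.8-fold higher. AT1G53540, of the same class, read 9.1 and 1038 (at least 42.0-fold). AT1G52560 read 1.3 and 585.9, at least 23.7-fold apart. AT2G29500, AT1G53540 and AT1G52560 were thus bright at day 9 and not above the floor in callus.

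AT1G54050, also of the small heat-shock family, was above the floor on both arrays and had the largest such ratio among the named genes, with 60.1 in callus and 1169 at day 9, a 19.4-fold difference. HSP22.0 (AT4G10250), which is found in the endoplasmic reticulum, read 12.6 and 451.3, at least 18.3-fold apart, and AT5G51440, a mitochondrial member, read 61.9 and 431.2. The family thus read higher in members of the cytosol, the endoplasmic reticulum and the mitochondrion. AT2G19310 read 31.2 and 143.7, and AT5G37670, a peroxisomal member, read 14.0 and 72.2. The exception was AT4G21870, which lay just over the floor at 25.4 on day 9 and had a log2 ratio of at least 0.04. AT5G37670 did not stay 2-fold apart with a higher floor, at an intensity of 65.1.

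Some partners of these proteins also read well above callus. Of 15 measured genes of other chaperones, co-chaperones and heat-shock factors, 5 were at least 2-fold higher and 0 lower. Their median log2 ratio was 0.28 and the lowest was -0.26. AT5G48570, an FKBP-type immunophilin gene, read 28.9 and 399.3 (13.8-fold), and Hop3, a co-chaperone that bridges Hsp70 and Hsp90, read 18.2 and 322.7 (at least 13.1-fold). HSA32, a heat-stress-associated protein, read 42.5 and 189.9, and Fes1A, an Hsp70 co-chaperone, 162.2 and 480.3. AT1G66080 read 38.9 and 127.0, and was no longer 2-fold apart with the floor at 65.1. The other members of this list lay close to callus. The constitutive chaperone gene Hsp70-2 read 352.0 and 316.9, and Hop1, a relative of Hop3, read 196.9 and 165.1. The other Fes1 genes gave 30.0 and 27.1 for Fes1B and 106.3 and 95.2 for Fes1C.

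J-domain proteins, which hand unfolded proteins to Hsp70, gave 4 genes at least 2-fold higher and 0 lower of 28 measured, 22 of them with a ratio, and a median log2 ratio of 0.31. AT2G20560 read 31.5 and 352.0 (11.2-fold), AT1G56300 read 65.2 and 209.4, and AT5G05750 read 206.1 and 451.4. AT1G71000 read 0.7 and 53.8, at least 2.18-fold apart, and lost the 2-fold difference with the floor at 65.1. AT3G12170 lay at the other end of the list, with 46.9 and 28.9.

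In the endoplasmic reticulum, where secreted proteins fold, 1 of 10 measured genes of folding and stress was at least 2-fold higher, 0 were lower, and the median log2 ratio was 0.28. That gene was BZIP60, a transcription factor of the stress response of this compartment, with 286.8 and 709.5 and a log2 ratio of 1.31. The other membrane-bound factors of the same response stood in the same direction but under 2-fold, BZIP28 with 168.6 and 301.5 and BZIP17 with 136.3 and 200.8. The other 7 genes were under 2-fold, 4 above callus and 3 below. DER1, of the export of misfolded proteins, read 183.9 and 249.5. The calreticulin gene CRT1b read 635.4 and 487.5, and the calnexin gene AT5G07340 read 149.0 and 132.4.

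On the other arrays, day 9 was not the highest point for any of the 8 small heat-shock genes past 2-fold. AT1G54050 gave 1694 at day 2 and 2341 at day 5 in high medium, above its 1169 at day 9, while the low medium gave 2234 at day 5 and 1064 at day 9. AT5G48570 gave 506.7 at day 2 and 958.4 at day 5, and the 2 low medium arrays gave 1080 and 315.1. AT2G20560 went from 189.3 at day 2 to 832.0 at day 5 and read 1067 and 333.0 in low medium. The day 5 arrays of both media thus held the highest values of these genes, and the day 9 arrays held lower ones that were still above callus. Hop3 read 623.0 and HSA32 read 524.6 at day 5 in high medium. Each point of these time courses is 1 array. The background of the scan was highest for the low medium at day 5, at 105.48, against 69.04 for callus. The hybridisation spike control CreX-3 read 2432 and 1583 at days 5 and 9 in high medium, and 1602 and 1317 in low medium. The part of these array differences in the time courses was not tested.

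**Figure D2:**
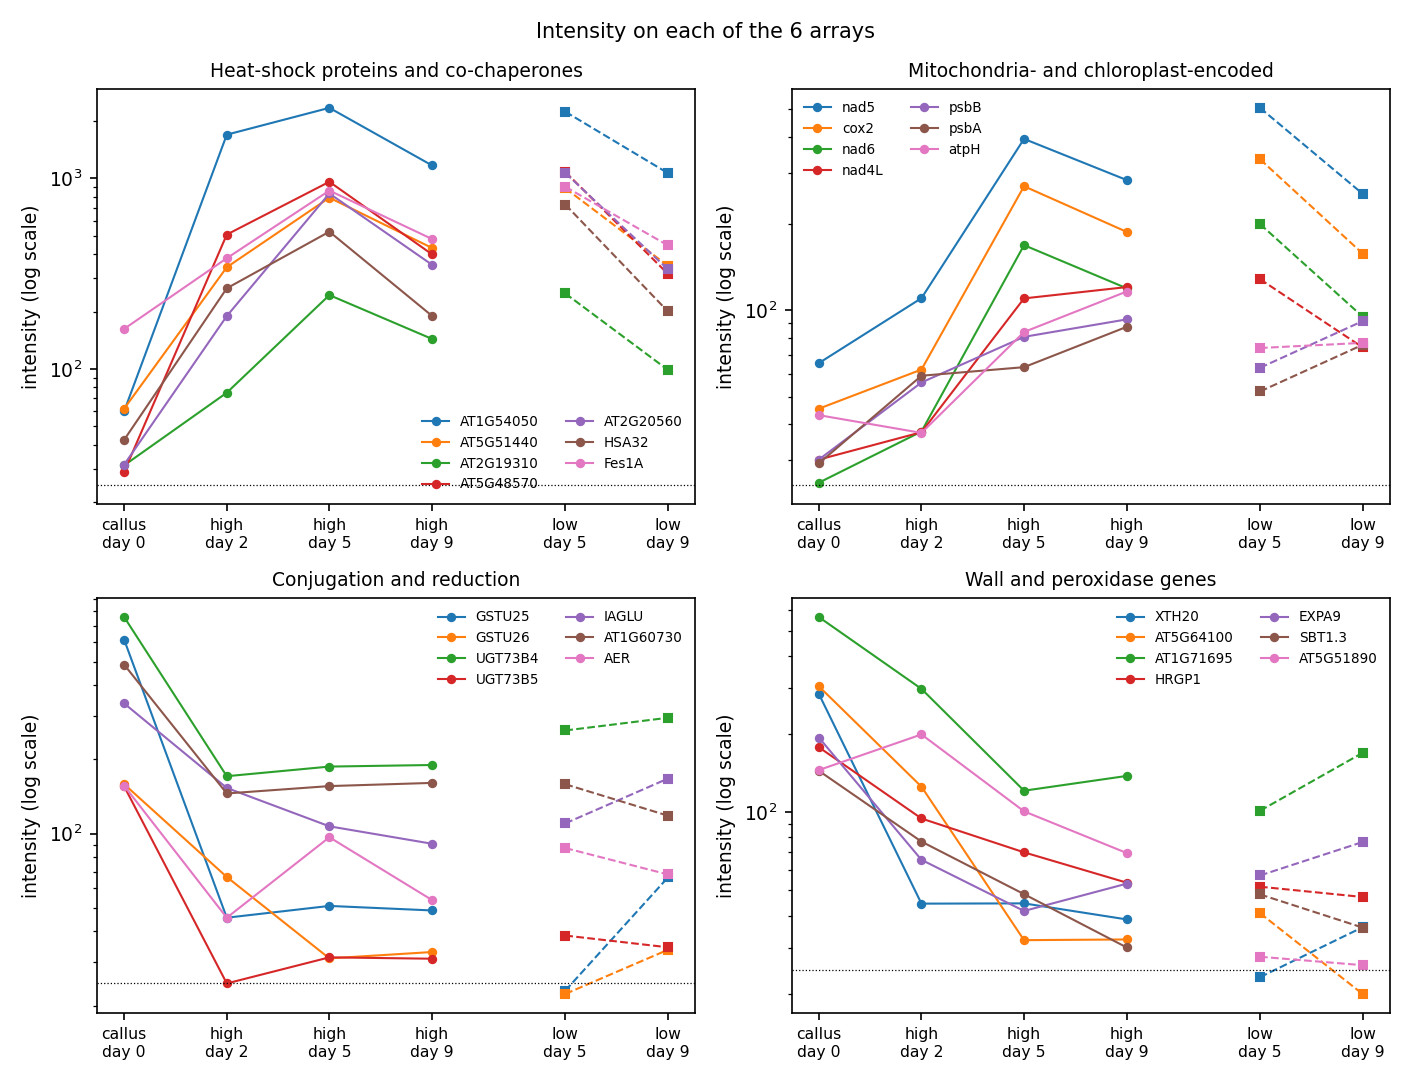
Intensity (log scale) of 7 genes in each of 4 groups on all 6 arrays, with circles and solid lines for callus and the high medium, squares and dashed lines for the low medium, and a dotted line at the floor of 24.7. Heat-shock genes such as AT1G54050 are highest at day 5, psbB and psbA are highest at day 9 among the high medium arrays, and GSTU25 and UGT73B5 read close to their day 9 level from day 2 onward.

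Among the other genes far above callus, AT5G10695 read 61.5 and 902.2 (14.7-fold), AT1G72800 read 55.2 and 557.5 (10.1-fold), and AT3G10020 read 124.4 and 839.0 (6.74-fold). AT5G10695 and AT3G10020 had the time course of the heat-shock genes, with 1677 and 1648 at day 5 in high medium. AT1G72800 was flatter, with 580.4, 771.8 and 557.5 at days 2, 5 and 9. AT1G67920 read 28.1 in callus and 139.6, 182.3 and 182.5 at the successive times, so it did not come back toward callus. AT2G15960 read 32.3 in callus and 202.4 at day 9, its highest point in high medium. AT1G72060, with 45.0 and 228.1, and AT1G59660, a nucleoporin gene with 57.9 and 275.4, were instead highest at day 2, at 436.9 and 365.8. AT1G72660, the remaining named gene at the floor in callus, read 19.8 and 99.4, at least 4.02-fold apart, and was not 2-fold apart with the floor at 65.1.

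Over the 165 higher genes, the highest of the 3 high medium arrays was day 9 for 83, day 5 for 61 and day 2 for 21. Over the 173 lower genes, the lowest of these arrays was day 9 for 85, day 5 for 63 and day 2 for 25. The genes were chosen on the day 9 array, which favours that array in these counts.

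Genes encoded by the mitochondrial genome also read above callus. Of 16 measured, 14 had a ratio and all of these were above 0, with 7 at least 2-fold higher, 0 lower and a median log2 ratio of 0.98. nad6, a subunit of respiratory complex I, read 25.1 and 119.1, nad5 read 65.4 and 283.4 and nad4L 30.2 and 120.2. cox2, a subunit of cytochrome c oxidase, read 45.4 and 187.1. At the low end of the list, ccb382, which takes part in cytochrome c maturation, read 190.2 and 261.1, and nad4 read 232.6 and 334.3. These last 2 were under 2-fold. With the floor at 65.1, 3 of the 16 remained at least 2-fold higher. Much of the mitochondrial genome is also present as a copy in the nuclear genome, so probe sets may read both copies. nad5 and cox2 were higher at day 5 than at day 9, with 393.9 and 269.6 in high medium and 505.1 and 334.8 in low medium.

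Chloroplast-encoded genes formed the largest organelle list. Of 69 measured, 64 had a ratio, 56 of them above 0 and 8 below, and 7 were at least 2-fold higher with 0 lower (median log2 ratio 0.53). psbB and psbA, which encode a core antenna protein and the D1 protein of photosystem II, read 30.2 and 92.8, and 29.3 and 87.4. atpH, a subunit of the chloroplast ATP synthase, read 43.1 and 116.0, and psbT read 19.0 and 70.2 (at least 2.84-fold). At the other end of the list psbM read 1247 and 1015, and psaJ, a subunit of photosystem I, read 728.6 and 398.4, both lower at day 9. With the floor at 65.1, 1 of the 7 kept the 2-fold difference. psbA and psbB read highest at day 9 in high medium, after 63.3 and 80.7 at day 5.

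Nuclear genes for the same organelles were read in 2 lists, which do not match the organelle-encoded lists gene for gene. Of 13 measured nuclear photosynthesis genes, 10 had a ratio, 0 were 2-fold apart in either direction and the median log2 ratio was -0.11. Over all genes 1.24% were higher and 1.3% lower, so 0 of 13 is near that share. The photosystem II gene PSBW read 70.9 and 41.4, the chlorophyll synthesis gene CHLM 96.1 and 56.9, and LHCB4.1, an antenna protein gene, 50.0 and 65.2. Among 8 genes of mitochondrial stress and alternative respiration, 1 was at least 2-fold higher and 1 lower. AT2G21640, known to respond to oxidative stress, read 42.3 and 180.8 (4.27-fold higher). NDB4, an alternative NAD(P)H dehydrogenase gene, read 171.6 and 82.5. The NDB4 difference fell under 2-fold when the floor value was added to both arrays in place of flooring. The related genes NDB1, NDB2 and NDB3 had log2 ratios of -0.29, -0.50 and -0.16.

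**Figure D3:**
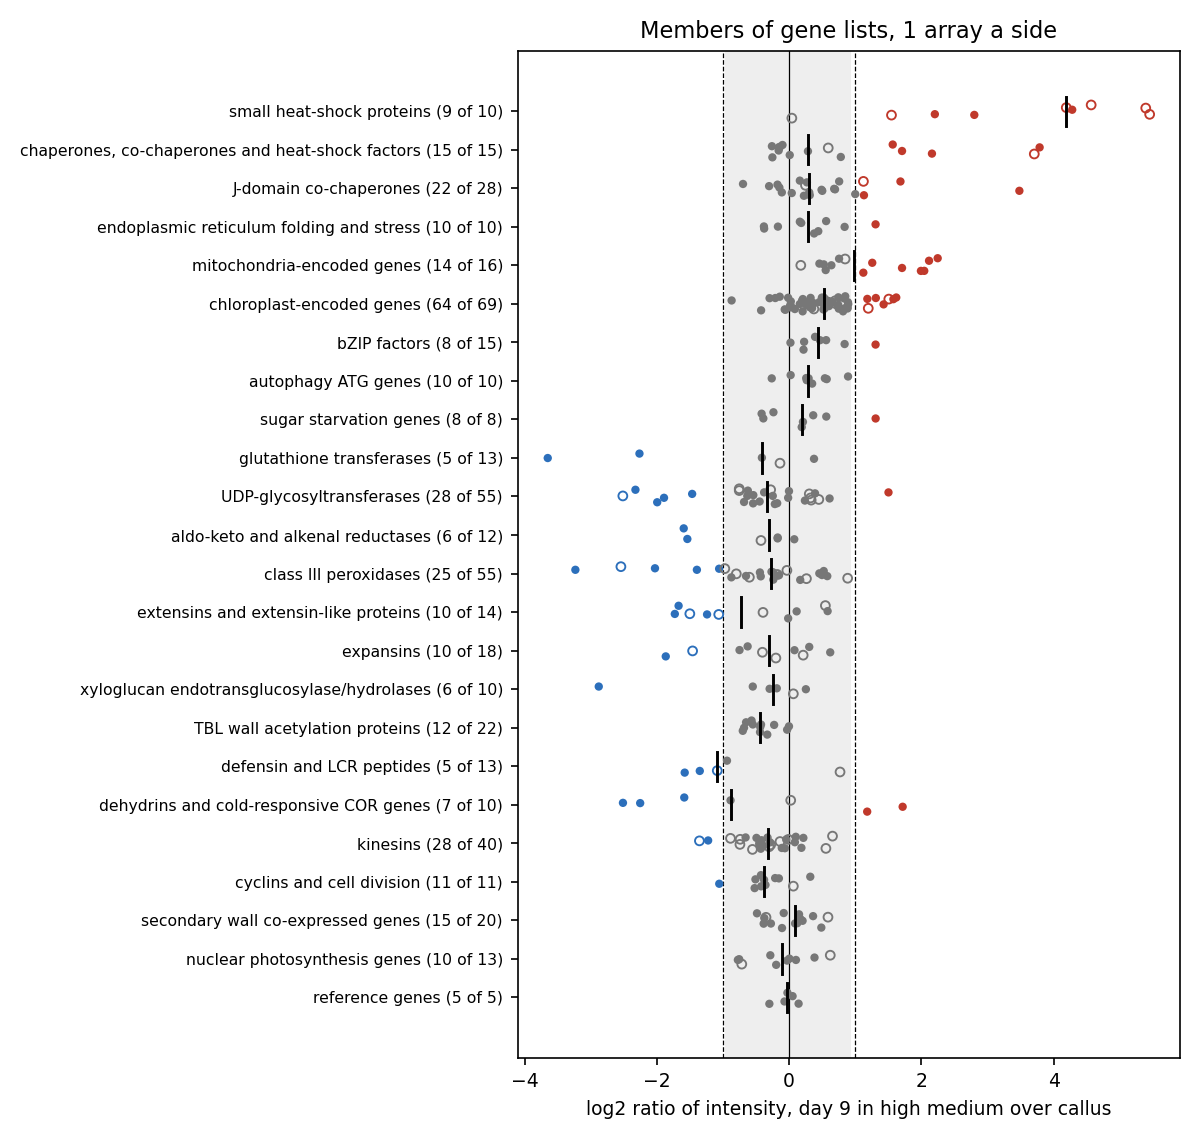
The log2 ratio of intensity at day 9 in high medium over callus for the members of 24 gene lists, 1 point a gene, with the number that have a ratio of those measured in brackets, open points for lower bounds, black bars for medians, dashed lines at 2-fold and a grey band for the central 95% of all genes with a ratio. Small heat-shock genes lie furthest to the right with a median of 4.19, and points past 2-fold to the left are found in the conjugation, wall, defensin and dehydrin lists.

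Among genes that the annotation pairs with a probe set, the furthest below callus was GSTU25. This gene is for a tau class glutathione transferase, an enzyme that joins glutathione to reactive compounds. It read 612.3 in callus and 48.7 at day 9, a 12.6-fold difference. GSTU26, its neighbour on the chromosome, read 158.6 and 33.0 (4.81-fold). Probe sets of such close relatives can take up each other's RNA, so the 2 may not be fully separate measurements. Of 13 measured glutathione transferase genes these 2 were at least 2-fold lower and 0 were higher, but 8 lay at the floor on both arrays. The other measured members were closer, with GSTU27 at 215.8 and 162.1 and the lambda class gene GSTL3 at 51.1 and 66.3.

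UDP-glycosyltransferases, which attach sugars to hormones, phenolics and foreign compounds, gave 5 genes at least 2-fold lower and 1 higher of 55 measured (28 with a ratio, median log2 ratio -0.33). UGT73B4 read 757.7 and 189.9, and the adjacent UGT73B5 read 155.4 and 31.0. UGT76B1, which acts on a defence-related acid, read 141.3 and 11.0, at least 5.72-fold apart. UGT71C3 read 131.1 and 47.4, and IAGLU, which attaches glucose to auxin, read 337.7 and 90.9. The gene in the other direction was AT3G46700, with 69.9 and 198.0 and a log2 ratio of 1.50.

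Reductases that detoxify carbonyl compounds read in the same direction as these enzymes. Of 12 measured aldo-keto, alkenal and related reductase genes, 6 had a ratio, 2 were at least 2-fold lower and 0 higher, and the median log2 ratio was -0.30. AT1G60730, an aldo-keto reductase gene, read 485.3 and 160.6, while ATB2 of the same cluster read 265.1 and 234.8. The alkenal reductase gene AER read 156.2 and 53.7, and its relative AT5G16990 read 80.3 and 84.7. Only 2 of 23 measured cytochrome P450 genes had a ratio, and neither was 2-fold apart.

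Several other genes of secondary metabolism and stress read far below callus. AT3G13610 (F6'H1), whose enzyme makes the precursor of the coumarin scopoletin, read 243.0 and 39.9 (6.09-fold lower), and AT2G25450, a glucosinolate-modifying dioxygenase gene, read 191.4 and 38.9 (4.92-fold lower). AT4G01870 read 886.6 and 144.4, 6.14-fold lower. AT4G22530 read 168.2 and 23.9, at least 6.81-fold lower. For F6'H1 the high medium arrays went down step by step, with 107.3, 99.2 and 39.9 at days 2, 5 and 9. GSTU25 and UGT73B5 had instead reached 45.5 and 24.6 by day 2.

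Enzymes of ascorbate, methionine and superoxide chemistry were split. Of 14 measured redox genes, 13 had a ratio, 2 were at least 2-fold lower and 1 higher, and the median log2 ratio was -0.35. MSRB5, a methionine sulfoxide reductase gene, read 960.3 and 336.2, and VTC4, of ascorbate synthesis, read 148.4 and 58.4. CCS, the copper chaperone for superoxide dismutase, read 123.9 and 257.7. The CCS difference was under 2-fold with the floor value added. GR1, a glutathione reductase gene, read 383.5 and 253.3, under 2-fold.

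Class III peroxidases, secreted enzymes that cross-link wall polymers or make reactive oxygen there, gave 5 genes at least 2-fold lower and 0 higher of 55 measured, 25 of which had a ratio (median log2 ratio -0.27). AT5G64100 read 304.9 and 32.4 (9.41-fold lower), and AT5G17820 read 144.2 and 17.9, at least 5.84-fold lower. AT1G71695 read 563.2 and 137.9, and AT2G43480 read 67.9 and 25.8. The remaining called gene of the list was AT5G51890, with 145.3 and 69.7. Its difference was under 2-fold with the floor value added, and that of AT2G43480 was so under both of these settings. The members at the upper end were AT3G03670, with 24.2 and 45.6, AT2G22420 with 192.7 and 287.3, and AT2G18980 with 83.6 and 120.1. AT5G64100 and AT5G17820 had already come down to 32.2 and 7.3 at day 5, while AT5G51890 read 199.2 at day 2, above callus.

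Structural wall proteins also read lower. Of 14 measured extensin and extensin-like genes, 10 had a ratio, 5 were at least 2-fold lower and 0 higher, with a median log2 ratio of -0.73. HRGP1 read 177.8 and 53.6, AT5G06630 read 88.0 and 27.6, and AT1G23720 read 107.4 and 45.4. AT3G28550 read 70.0 and 1.6, at least 2.83-fold lower. Members with a leucine-rich repeat domain lay closer to callus: AT3G24480 read 85.0 and 84.1, and AT3G22800 read 39.3 and 58.8. With the floor at 65.1, 1 of the 5 kept the 2-fold difference. Extensin genes are repetitive, so the intensity of 1 member may include RNA of another.

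Enzymes and proteins that loosen the wall gave a few large differences within families that were otherwise near callus. XTH20, a xyloglucan endotransglucosylase/hydrolase gene, read 285.0 and 38.7 (7.36-fold lower), and it was the only member of 10 measured that was 2-fold apart. XTH19 read 126.4 and 86.3, XTH18 46.9 and 38.2 and EXGT-A3 550.4 and 483.3. Of 18 measured expansin genes, 10 had a ratio and 2 were at least 2-fold lower, EXPA9 with 193.7 and 53.1 and EXPA8 with 68.0 and 11.8 (at least 2.75-fold). EXPA8 was not 2-fold apart with the floor at 65.1. EXPA4, bright on both arrays, read 1057 and 683.6, and the expansin-like gene EXLA1 read 385.5 and 592.8.

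Among enzymes that cut wall polymers or proteins outside the cell, GH9B13, an endoglucanase gene, read 562.5 and 269.0, and was under 2-fold with the floor value added. It was the only one of 15 measured GH9 genes past 2-fold, with 8 at the floor on both arrays, and 1.3% of all genes were called lower. SBT1.3, a subtilase gene, read 144.3 and 30.2 (4.78-fold lower), and the other 3 subtilases with a ratio had log2 ratios from -0.96 to -0.03. The TBL genes belong to a family known for adding acetyl groups to wall polysaccharides. The 12 with a ratio had log2 ratios from -0.70 to -0.003 (median -0.44), and 0 of 22 measured were 2-fold apart. AT1G67330, of a family of polysaccharide methyltransferases, read 106.8 and 3.9, at least 4.32-fold lower, and was not 2-fold apart with the floor at 65.1. The 8 genes of cellulose synthase-like and primary wall proteins gave 0 calls. CSLD2 read 286.7 and 309.8, and COB, which orients cellulose deposition, 220.5 and 185.2.

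Beta-glucosidases gave few calls, on both sides. Of 20 measured, 12 lay at the floor on both arrays, 1 was at least 2-fold higher and 2 lower. The shares over all genes were 1.24% higher and 1.3% lower. BGLU46, which can release lignin precursors from their glucosides, read 40.7 and 111.0, while BGLU42 read 90.9 and 41.8 and BGLU25 read 149.3 and 72.7. BGLU46 lost the 2-fold difference with the floor at 65.1. BGLU42 did so there and with the floor value added, and BGLU25 with the floor value added or the array medians made equal.

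Secreted defence peptides read lower. Of 13 measured genes of defensin and LCR peptides, 5 had a ratio, 3 were at least 2-fold lower and 0 higher. LCR69 read 1141 and 381.5, LCR67 179.5 and 70.3 and LCR68 52.5 and 7.6. LCR68 was not 2-fold apart with the floor at 65.1. PDF1.2b, a defensin gene of the jasmonate response, read 18.7 and 42.1, the only member with a ratio above 0. AT1G50060, which encodes a protein of the PR1 type, read 104.9 and 3.3, at least 4.25-fold lower, and was also not 2-fold apart with that floor.

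Chitinase genes lay on both sides of callus. Of 10 measured, 7 had a ratio. AT1G56680 was at least 2-fold lower, with 583.8 and 121.2, and AT3G47540 higher, with 195.2 and 523.1. The shares over all genes were 1.3% lower and 1.24% higher. The annotated chitinase gene CHI (AT2G43570) read 63.4 and 125.2, just under 2-fold. Another member, AT2G43610, read 463.1 in callus and 495.4 at day 9, but 2094 at day 2 in between. Of 11 measured RALF-like peptide genes, which act as signals at the cell surface, RALFL24 was lower, with 54.4 and 23.2, and lost the 2-fold difference with the floor at 65.1 and with the floor value added.

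Genes known for cold and drought responses split into 2 sets. Of the dehydrins, hydrophilic proteins made under water loss, 3 were at least 2-fold lower: AT4G38410 read 233.7 and 40.9 (5.71-fold lower), COR47 319.1 and 66.9 and LTI30 256.0 and 85.2. COR27 and AT4G33980, which encode small proteins regulated by cold and the circadian clock, read higher, with 28.6 and 64.8, and 72.3 and 237.6. Together the list gave 3 lower and 2 higher genes of 10 measured, of which 7 had a ratio. AT4G39130 and LEA were among those at the floor on both arrays. COR27 was not 2-fold apart with the floor at 65.1 or with the floor value added. The dehydrins differed in their time course: AT4G38410 read 233.4 at day 2, as in callus, and 59.1 at day 5, while LTI30 read 36.2 at day 2, below its day 9 value, and 93.1 at day 5. AT1G54890, a gene related to late embryogenesis abundant proteins, read 135.6 and 16.9 (at least 5.49-fold lower), and AT2G34080, a cysteine protease gene, 336.8 and 70.4. In low medium at day 9, COR47 read 228.0 and AT2G34080 225.8, well above their values in high medium.

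Glucose at 2.0% in the callus medium was followed by 0.2% sucrose with 4% mannitol in the high medium. Genes known to rise in sugar starvation gave 1 of 8 measured at least 2-fold higher, 0 lower and a median log2 ratio of 0.20. AT3G15450, the member that was called, read 159.4 and 394.6. IVD, of branched-chain amino acid breakdown, read 111.7 and 164.8, and the regulatory subunit gene AKINBETA1 150.4 and 171.5. Of 19 measured sugar transporter genes, 12 lay at the floor on both arrays. SWEET1 was at least 2-fold lower, with 153.7 and 59.8, and SFP1 higher, with 45.8 and 104.0. The shares over all genes were 1.3% lower and 1.24% higher. The SFP1 difference was under 2-fold with the floor at 65.1 and with the floor value added.

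Autophagy, in which a cell encloses and degrades its own contents, was represented by 10 measured genes, of which 9 had log2 ratios above 0 and 0 were 2-fold apart (median 0.28). ATG8E, which encodes a protein of the autophagosome membrane, read 179.0 and 331.8, APG8A 268.9 and 398.6 and ATG8C 303.3 and 441.0. ATG8H read lower, at 34.1 and 28.4. None of these passed the rule of size.

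Hormone genes were mostly within 2-fold of callus, as were most genes, of which 1.24% were called higher and 1.3% lower. Of 19 measured auxin genes, 14 had a ratio and only IAGLU, described above, was 2-fold apart. YUC2, of auxin synthesis, read 33.1 and 59.4, the auxin-conjugating enzyme genes WES1 and GH3.1 read 1251 and 1956, and 164.5 and 256.7, and HAT2, an auxin-responsive homeobox gene, read 390.5 and 275.8. The gibberellin, ethylene and brassinosteroid list had 7 measured genes, all with log2 ratios between 0.12 and 0.93 and 0 past 2-fold. The gibberellin receptor genes GID1A, GID1B and GID1C read 292.3 and 393.1, 170.4 and 207.1, and 25.9 and 49.5, and EIN3, the main transcription factor of the ethylene response, read 934.3 and 1535.

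Of the transcription factor families, all 8 bZIP genes with a ratio, of 15 measured, lay above 0 with a median of 0.43, and BZIP60 was the only one past 2-fold. The 14 bHLH genes had a median of -0.01, which was above 0 with equal array medians or quantile scaling, and 0 were past 2-fold. MYC3, a regulator of jasmonate responses, read 204.5 and 401.6. It was at 2-fold or more only when the array medians were made equal. WRKY genes gave 0 calls of 7. CML38, for a calmodulin-like calcium sensor, read 262.0 and 533.1, a 2-fold difference that did not hold with the floor value added. The 9 calmodulin-binding IQD genes with a ratio had log2 ratios from -0.62 to 0.04, with a median of -0.28 and 0 calls.

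Genes of cell division lay somewhat below callus, mostly by less than 2-fold. Of 11 measured genes of cyclins, mitotic kinases and related proteins, 9 were below 0, with a median log2 ratio of -0.38 and 1 at least 2-fold lower. That gene was FU, whose kinase acts in the division of cells, with 132.4 and 63.6, under 2-fold with the floor value added. The Aurora kinase genes AUR1, AUR2 and AUR3 read 103.0 and 76.6, 63.5 and 44.2, and 92.3 and 68.8. Among 40 measured kinesin genes, motor proteins of which many act on the spindle, 28 had a ratio (median log2 ratio -0.32), and 2 were at least 2-fold lower. The share called lower over all genes was 1.3%. KICP-02 read 63.3 and 22.8 (at least 2.56-fold), and AT3G44050 read 121.4 and 51.9. Neither was 2-fold apart with the floor at 65.1 or with the floor value added.

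Histone and tubulin genes gave 1 call between them. Among 7 histone genes HTB1, for histone H2B, read 196.1 and 125.0, and the other H2B gene HTB11 515.6 and 537.3. HIS1-3, a linker histone of stressed plants, read 157.7 and 344.7 and was the only histone gene past 2-fold. It read 170.3 at day 5 and 337.1 at day 2, so its arrays did not follow a steady course. Of 7 tubulin genes 0 were 2-fold apart, and TUB9 read 552.4 and 371.6.

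Secondary walls are the thick, lignified walls that xylem vessels lay down. Of 20 measured genes that are usually expressed together when secondary walls form, 15 had a ratio and 5 lay at the floor on both arrays. None was 2-fold apart in either direction and the median log2 ratio was 0.09. Over all genes 1.24% were higher and 1.3% lower, so 0 of 20 is near that share. IRX1, IRX3, IRX5 and MYB46 are not paired with a probe set of a single gene here and could not be read. AT3G27200 went from 156.7 in callus to 641.0 at day 2 and 371.4 at day 5, and was at 201.3 by day 9. The values of AT1G79620 were 28.2 and 39.5, after 154.7 and 59.1, and AT5G26330 read 40.7 and 33.6, after 203.2 and 60.2. Day 9 thus held values close to callus for genes that had stood well above it at day 2. The xylan synthesis genes IRX15-L, GUT1, IRX15 and GUT2 all had log2 ratios below 0, from -0.49 to -0.08.

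Of 40 markers listed for cell types, 9 are paired with a probe set of a single gene in the annotation used here, so most defining markers could not be read. Of 10 tracheary element markers 2 could be: SCPL48, a carboxypeptidase of xylem cells, with 398.8 and 582.0, and the zinc finger gene C3H14, with 29.5 and 36.5. Their summed intensity was 428.3 in callus and 618.5 at day 9, most of it from SCPL48. In low medium at days 5 and 9 SCPL48 read 984.2 and 771.1, above its day 9 value in high medium, and C3H14 read 29.3 and 26.8. At day 2 in high medium C3H14 had read 114.6. OPS, of the phloem, read 40.4 and 43.3, and LBD16, which marks callus and lateral root founder cells, 136.5 and 153.9. The markers ACR4 of the epidermis, EXPA7 of root hairs, CLV3 of the shoot meristem and LBD29 lay at or below the floor on both arrays. No marker that could be read was 2-fold apart, and the identity of the day 9 cells was not shown by these markers. None of the 3 markers of cycling cells is paired here.

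Genes next to each other on a chromosome gave 5845 pairs with both members measured, by the order of protein-coding genes in RefSeq assembly TAIR10.1. Of these, 308 held at least 1 called gene and 8 held 2 called genes. The pairs took in 227 called genes, and over all genes 1.24% were called higher and 1.3% lower. Whether 8 pairs is more than these shares would give was not tested. Both members were lower in 6 of the 8, both were higher in 0 and they were opposite in 2. The 6 pairs were GSTU25 with GSTU26, UGT73B5 with UGT73B4, the extensin genes AT3G54580 and HRGP1, SAH7 with AT4G08690, AT4G29680 with AT4G29690, and AT5G07860 with AT5G07870. These pairs were named after their values were seen. AT5G07860 read 122.5 and 37.6 and AT5G07870 read 62.2 and 21.3, while SAH7, a gene of pollen allergen type, read 322.7 and 121.3. The opposite pairs were AT3G01400 (84.5 and 184.3) with AT3G01410 (76.1 and 6.6), and AT4G13180 (1131 and 463.3) with AT4G13190 (39.4 and 148.2).

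Genes used as references for expression in this species lay near callus. AT2G28390 (SAND) read 121.4 and 119.2, AT4G34270 (TIP41-like) 210.6 and 200.5, GAPC2 2686 and 2784 and AT4G33380 82.1 and 66.7. Of the 707 probe sets past 2-fold, 344 (48.7%) are unnamed here, against 38.4% of all probe sets. Among the unnamed ones, 24 stood 4-fold or more above callus and 15 stood as far below it. The furthest apart with both arrays above the floor were 261838_at, with 37.4 and 1316, and 260248_at, with 33.4 and 910.4, on the higher side. On the lower side they were 259875_s_at, with 926.4 and 68.7, and 262518_at, with 1011 and 118.9. The named genes are therefore an incomplete account of the largest differences.

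Control probe sets were read beside these results. Over 18 hybridisation spike controls above the floor, the day 9 array was a median of 1.14 times the callus array, with a range of 0.810 to 1.43. The ratio of the 3' to the 5' probe set of a control gene, a rough measure of RNA integrity, was higher at day 9 for 4 of 6 pairs and lower for 2. For GAPDH it was 0.900 in callus and 1.16 at day 9, and 0.969 and 1.09 for a second pair of probe sets. For actin it was 7.23 and 5.20, and 1.29 and 1.26. The part of these differences in the gene ratios was not tested.

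**Figure D4:**
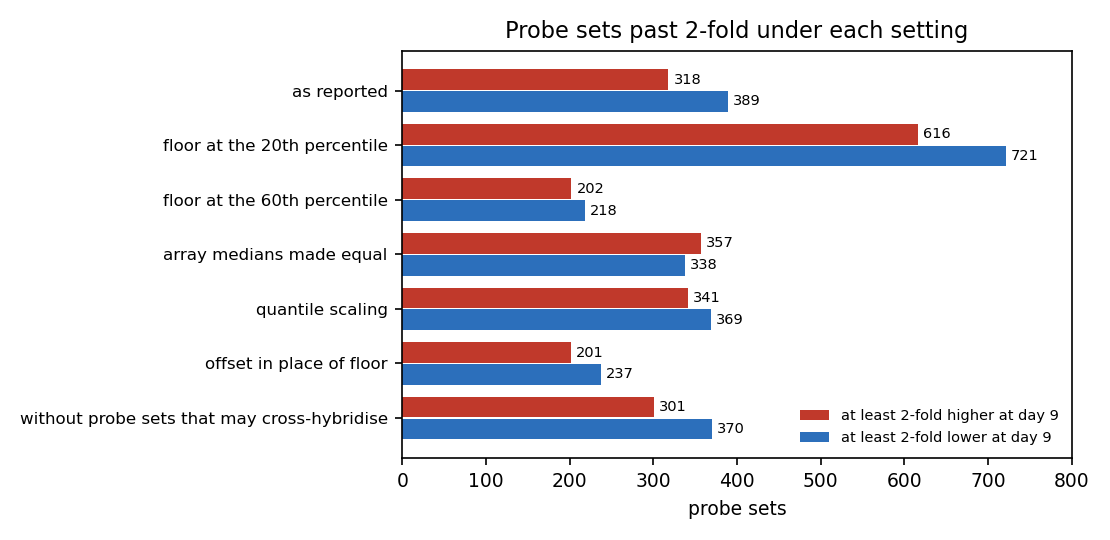
Number of probe sets at least 2-fold higher (red) or lower (blue) at day 9 than in callus, for the settings as reported and 6 alternatives. The counts as reported were 318 and 389, and they ranged from 201 to 616 for higher and from 218 to 721 for lower over these alternatives.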

How the data were processed

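RNA of 2 cultures was compared on 1-colour ATH1 arrays, with 1 array per condition and no replicate. Per the labels' protocols, RNA was purified on columns and hybridised as biotin-labelled cRNA. The authors deposited 1 linear intensity per probe set. Which program computed and scaled it is not given in the labels. The growth text of the labels lists the high medium's hormones for every sample and the extraction text speaks of seedlings, so groups were taken from sample names and treatment texts.

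The 64 control probe sets were set aside. A floor was placed at 24.7, the median over the 6 arrays of the 40th percentile, and log2 ratios were taken (Python 3, pandas and numpy). The annotation gives several genes for 503 probe sets and none for 8730 (38.4%). Of 13513 probe sets with 1 gene, 13436 matched RefSeq assembly TAIR10.1, used for names and gene order only. The brightest probe set over the 6 arrays stood for each gene.

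The text names the 12 genes furthest above and the 12 furthest below callus with both arrays above the floor, the 6 brightest at each side with 1 array at the floor, and up to 4 members at each end of 46 gene lists, or all members of lists of 8 or fewer. A few further members past 2-fold, or whose other arrays are described, were named after their values were seen. Members and lists were chosen with earlier results of these data known. Promoter sequences and motifs were not used here. The number of arrays limits the precision.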

Additional observations from a re-analysis of the deposited data

Results flagged for a closer look

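The control probe set for 5S ribosomal RNA, which is outside the gene comparison, read 11.0 in callus, below the floor, and 132.4 at day 9 in high medium, at least 5.36-fold higher. The same probe set read 19.4 at day 2 and 79.9 at day 5 in high medium, and 27.1 and 149.1 at days 5 and 9 in low medium. For 25S ribosomal RNA the control gave 2233 in callus and 2644 at day 9.

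AT1G03820 stood on opposite sides of callus at 2 times in high medium. It read 175.6 in callus, 466.6 at day 2 and 54.2 at day 9, with log2 ratios over callus of 1.41 at day 2 and -1.70 at day 9. The difference between the times was not tested, since each time has 1 array, and the gene was named because of these values.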

How the results depend on the processing

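The counts of probe sets at least 2-fold higher and lower, 318 and 389 as reported, depended on how dim values were treated. They were 616 and 721 with the floor at the 20th percentile (7.7), 202 and 218 with the floor at the 60th percentile (65.1), and 201 and 237 when the floor value was added to both arrays in place of flooring. A higher floor or an added value shrinks the ratios of dim genes by construction. They stayed within 1.5 times of the reported counts with array medians made equal (357 and 338), with quantile scaling (341 and 369) and without probe sets marked as able to cross-hybridise (301 and 370). A floor or an added value cannot turn the sign of a ratio, and both scalings shifted the ratios only slightly. None of the 165 higher and 173 lower genes changed direction under the 5 settings of floor, scaling and offset, which was largely fixed beforehand. Of them, 100 and 95 were still 2-fold apart with the floor at the 60th percentile, 110 and 85 with the added value, 165 and 149 with equal medians, and 165 and 160 with quantile scaling. Of 100 genes past 2-fold that were named or listed, 2 fell under it with the mean over a gene's probe sets in place of the brightest. The scalings moved the median log2 ratio of all probe sets from -0.02 to 0.03 and 0. Both scalings and the floor at the 60th percentile turned the sign of the median of the bHLH list (-0.01), and equal array medians that of the reference list (-0.03). Each median was taken over the members with a ratio at that setting, so a changed floor also changed which members entered. With the floor at the 20th percentile the median went from -0.89 to 0.13 for the dehydrin list, from -0.16 to 0.06 for cytochrome P450 and from 0.17 to -0.05 for vascular and meristem markers. AT4G38410, COR47 and LTI30 of the dehydrin list kept log2 ratios of -2.51, -2.25 and -1.59 with that floor. The median of the small heat-shock list went from 4.19 to 3.54 with that floor and to 2.98 with the floor at the 60th percentile. No paired analysis was possible because each condition has 1 array, and for the same reason no replicate could be left out. The number of arrays, and for dim genes the signal over background, limit these results.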
